A study of Mus musculus with 22 samples.

Results

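The genes described here govern the G1 phase of the cell cycle, the interval in which a cell either commits to copying its DNA or stays at rest. They were taken by symbol from the expression tables of sorted bone marrow B cell precursors, and all 10 were found: the D-type cyclins Ccnd2 and Ccnd3, their kinases Cdk4 and Cdk6, the inhibitors Cdkn2c, Cdkn1a and Cdkn1b, the E-type cyclins Ccne1 and Ccne2, and the retinoblastoma relative Rbl2. They are 10 of 41814 genes listed in any of the 3 tables. All 10 had enough reads to be tested at each stage.

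The 3 sorted stages were large Pro-B cells, then large Pre-B cells and last the small Pre-B cells, from adult tet-LIN28B mice and from littermates without the transgene. The tet-LIN28B mice carried a single copy of a tetracycline-operator transgene at Col1a for Flag-tagged human LIN28B, together with the reverse transactivator Rosa26 rtTA*m2. Controls carried the transactivator alone. Both genotypes were fed doxycycline chow at 200 mg/kg for 10 days, so the drug and the transactivator are shared and the transgene is what differs. The transactivator is expressed from Rosa26 and thus is not limited to B cells. After depletion of CD3+, TER119+ and GR1+ cells, the CD93+ IgM- gate was divided, with cKIT marking Pro-B and its absence Pre-B cells, and forward scatter setting size. Large Pro-B cells gave 4 control and 5 transgenic libraries, large Pre-B cells 3 and 4, and small Pre-B cells 3 of each genotype. They came from 15 mice, of which 7 gave both large Pro-B and large Pre-B cells and 0 gave small Pre-B cells and another stage.

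D-type cyclins bind CDK4 and CDK6 in response to growth signals, and the active kinase phosphorylates the retinoblastoma family. That releases E2F factors, which switch on the E-type cyclins and with them CDK2 and DNA replication. INK4 proteins such as p18 (Cdkn2c) block CDK4 and CDK6 directly, whereas p21 (Cdkn1a) and p27 (Cdkn1b) bind cyclin-kinase complexes, mainly those of CDK2. The protein encoded by Rbl2 binds repressive E2F factors and the MuvB core in resting cells. In the marrow, Pro-B cells grow on IL-7, large Pre-B cells divide in a burst after the pre-B cell receptor appears, and small Pre-B cells leave the cycle to rearrange their light chain genes. Cyclin D3 is the D-type cyclin that this burst is known to need.

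LIN28B blocks the maturation of let-7 microRNAs, so the let-7 seed was looked for in these genes. The mature sequence is shown with the seed, bases 2 to 8, in capitals (RefSeq, GRCm38.p6, chr13:48538239-48538260, minus strand). Only matches to all of these bases were searched, and shorter seed matches were not. A match was present in the 3' untranslated region of 1 of the 10 genes, Cdk4. That compares with 8.95% of 20987 genes when the longest annotated region of each is searched. The Cdk4 site lies at chr10:127067658-127067680 on the plus strand of GRCm38, with the letters that pair with the seed in capitals.
mmu-let-7a-5p: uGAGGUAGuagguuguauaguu
Cdk4 site: cctagggcccgaggcCTACCTCc

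The values are per gene. On GRCm38, Ccnd2 lies at chr6:127125162-127152193 and Cdkn1b on the same chromosome at chr6:134920401-134925513. Ccnd3 and Cdkn1a share chromosome 17, at chr17:47505051-47599691 and chr17:29090976-29100727, and Ccne2 and Cdkn2c share chromosome 4, at chr4:11191351-11204779 and chr4:109660876-109667189. Ccne1 is at chr7:38097984-38107534, Cdk4 at chr10:127063534-127067920, Cdk6 at chr5:3341485-3531008 and Rbl2 at chr8:91070057-91123844. Ccnd2, Ccne1 and Cdkn2c are on the minus strand and the others on the plus strand.

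Promoter windows, from 250 bases before to 50 after the start site, were listed for 8 of the 10 genes, in 11 windows because several have more than 1 start. Ccnd2 and Ccne2 were not matched. Each motif was searched on both strands. The E2F words TTTCCCGC and TTTGGCGC were in 0 of 11 windows, against 1.07% and 0.514% of 32851 windows. Other forms of the E2F site were not searched, and with shares this low 0 of 11 cannot set these genes apart. The MYC word CACGTG was in 3 windows, those of Cdk4, Cdk6 and Cdkn2c, against 7.15% of all windows. A CHR element, TTTGAA, was in the window of Rbl2 only, against 17.9% of all. The FOXO word GTAAACA was in 1 window of Ccnd3, against 3.65% of all. The windows of Cdk4 and Rbl2 are shown because these genes had opposite steps between large and small Pre-B cells, with the matched words in capitals. In that of Cdk4 (chr10:127063285-127063584, plus strand), CACGTG occurs 4 times, at positions -172, -118, -98 and -11 from the start site. In that of Rbl2 (chr8:91069807-91070106, plus strand), the reverse complement of TTTGAA occurs once.
Cdk4 promoter: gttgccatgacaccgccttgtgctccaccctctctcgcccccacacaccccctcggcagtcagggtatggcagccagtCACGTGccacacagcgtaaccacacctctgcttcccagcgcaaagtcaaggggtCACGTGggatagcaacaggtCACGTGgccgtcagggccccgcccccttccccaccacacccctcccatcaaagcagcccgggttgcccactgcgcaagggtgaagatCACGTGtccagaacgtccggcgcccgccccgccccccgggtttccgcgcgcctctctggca
Rbl2 promoter: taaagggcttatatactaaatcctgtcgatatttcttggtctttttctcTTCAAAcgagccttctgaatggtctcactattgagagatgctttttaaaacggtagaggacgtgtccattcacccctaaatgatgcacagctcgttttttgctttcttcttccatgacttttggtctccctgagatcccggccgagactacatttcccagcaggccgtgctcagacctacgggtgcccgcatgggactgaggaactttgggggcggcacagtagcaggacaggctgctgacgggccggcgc

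Read totals recovered from the tables were 13.9 to 23.3 M for large Pro-B, 19.9 to 30.4 M for large Pre-B and 32.0 to 51.0 M for small Pre-B libraries. Levels are given as RPM, a gene's reads per 1000000 reads of the library. Lin28b was listed at 3.14 to 14.3 RPM in tet-LIN28B and 0.259 to 0.566 in control large Pro-B cells. It was at 2.49 to 10.2 and 0.577 to 2.11 in large Pre-B cells, and at 2.29 to 6.41 and 0 in small Pre-B cells. Each library thus went with its label, though narrowly in large Pre-B cells. There control replicate 3 had 2.11 RPM and tet-LIN28B replicate 1 had 2.49. The transgene is human cDNA, and how its reads were assigned to the mouse gene was not tested. Kit was at 19.5 to 93.8 RPM in large Pro-B and at most 3.81 in Pre-B libraries, and Il2ra was at 125 to 315 in small Pre-B and at most 1.99 in large Pro-B libraries. The summed T and NK cell markers reached at most 6.30 RPM. Granulocyte and monocyte markers were higher, at 60.5 to 261 RPM in large Pro-B, 4.69 to 386 RPM in large Pre-B and 8.96 to 55.3 RPM in small Pre-B libraries. Large Pro-B control replicate 4 and tet-LIN28B replicate 4 stood apart, with a mean correlation to the other libraries of their stage of 0.877 and 0.884 against 0.909 to 0.930, and large Pre-B control replicate 3 had 0.922 against 0.940 to 0.951. Genotype values that they move by over 1.5 times are given without them for the genes singled out at each large-cell stage.

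Between large and small Pre-B cells, the cyclins, their kinases and most inhibitors were at much lower levels, whereas Cdkn1b and Rbl2 were at higher levels. In controls, 8 of the 10 genes were lower in every small Pre-B library than in every large Pre-B library, against 28.8% of 11830 genes tested at all stages. Cdkn1b and Rbl2 were higher without overlap, against 42.0% of genes. In tet-LIN28B mice the same 8 genes were lower, against 25.7% of genes, and 1 was higher without overlap, Rbl2, against 39.6%. No test was run across stages because each table was normalized on its own. The small Pre-B libraries also came from other mice, at 32.0 to 51.0 M reads against 19.9 to 30.4 M in large Pre-B cells. Stage, mice and any batch cannot be told apart for this step. Across all genes the median step from large to small Pre-B controls was 0.20 on the log2 scale in RPM and -0.02 with size factors taken over all 22 libraries. With those size factors, the control steps were 2.33-fold for Cdkn1b and 1.51-fold for Rbl2. Both scales are relative to the rest of a library, so a higher level need not be more RNA per cell. In bulk libraries, fewer cells that express a gene and less of its RNA per cell cannot be told apart, and size is what the sort of these stages used.

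Of the D-type cyclins, Ccnd2 had the larger step and Ccnd3 the smaller. Control levels of Ccnd2 were 265, 307, 360 and 492 RPM in large Pro-B cells. They were 135, 169 and 186 in large Pre-B cells, and small Pre-B cells had 12.3, 9.19 and 15.2. No stage overlapped with another, and the mean was 2.18-fold lower in large Pre-B than in large Pro-B cells and 13.3-fold lower again in small Pre-B cells. Ccnd3 was at 2263 ± 471 (SD, n = 4), 2179 ± 430 (n = 3) and 843 ± 49.1 (n = 3) RPM in the same order. Its large Pro-B and large Pre-B libraries overlapped, and the step to small Pre-B cells was 2.58-fold. Per kilobase of exon, Ccnd3 made up 87.0% ± 3.65, 93.3% ± 0.621 and 98.2% ± 0.204 of the D-type cyclin RNA of controls. Exon length is the union of all annotated exons, not the length of the expressed transcript, so such shares depend on the annotation. Ccnd1, the remaining D-type cyclin, was at 0.345 to 2.53 RPM in control libraries.

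The kinase genes were lower at each successive stage. Cdk4 was at 835 ± 64.1, 610 ± 25.5 and 154 ± 11.7 RPM in controls at the 3 stages in order, and Cdk6 at 147 ± 7.29, 80.8 ± 12.4 and 13.9 ± 2.35. Libraries of neighbouring stages did not overlap for either gene, with a 3.97-fold step into small Pre-B cells for Cdk4 and a 5.82-fold step for Cdk6. Per kilobase Cdk4 was 96.0% to 97.9% of the pair's RNA in the control means of the 3 stages.

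The inhibitors did not share 1 course. Cdkn2c, which encodes the INK4 protein p18, followed the cyclins: 149 ± 31.1 and 166 ± 18.8 RPM in the large stages and 12.2 ± 1.14 in small Pre-B controls, a 13.6-fold step. Cdkn1a was at 51.6 ± 10.7, 31.2 ± 11.1 and 7.17 ± 1.08 and lowest in small Pre-B cells. Cdkn1b ran the other way, with 12.0, 15.6, 5.29 and 3.74 RPM in large Pro-B controls, 7.62, 11.3 and 11.3 in large Pre-B controls and 26.1, 29.7 and 25.7 in small Pre-B controls. The large stages overlapped and every small Pre-B control was above both, by 2.695-fold over the large Pre-B mean. In tet-LIN28B mice the 3 small Pre-B values of Cdkn1b, 23.6, 20.2 and 40.2, overlapped with the 22.3 of large Pre-B tet-LIN28B replicate 3. By length, p27 RNA was 12.2% ± 7.14, 20.8% ± 3.05 and 74.7% ± 4.30 of the Cdkn1a and Cdkn1b sum in controls.

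The E-type cyclins are made late in G1, and their levels in small Pre-B cells were far apart. Ccne1 was at 103, 77.7 and 96.0 RPM in the large Pre-B controls and at 1.23, 1.34 and 1.35 in the small Pre-B controls, which is 70.3-fold lower and the largest step of the 10 genes. Ccne2 was at 86.1 ± 6.68 and 11.1 ± 1.01, a 7.75-fold step. Ccne1 went from 58.3% ± 2.03 of E-type cyclin RNA per length to 13.4% ± 0.570. Between large Pro-B and large Pre-B controls the libraries of both genes overlapped.

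Rbl2 was at 59.9, 46.2, 37.3 and 15.8 RPM in large Pro-B controls. Large Pre-B controls had 84.7, 61.5 and 48.7, and small Pre-B controls had 111, 115 and 119. The small Pre-B libraries were above all others, 1.77-fold over large Pre-B cells, and the lowest value is that of the large Pro-B control that stood apart. In tet-LIN28B mice the step was 1.36-fold, from 75.9 ± 15.6 to 103 ± 9.05. With size factors over all libraries this step overlapped.

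**Figure D1:**
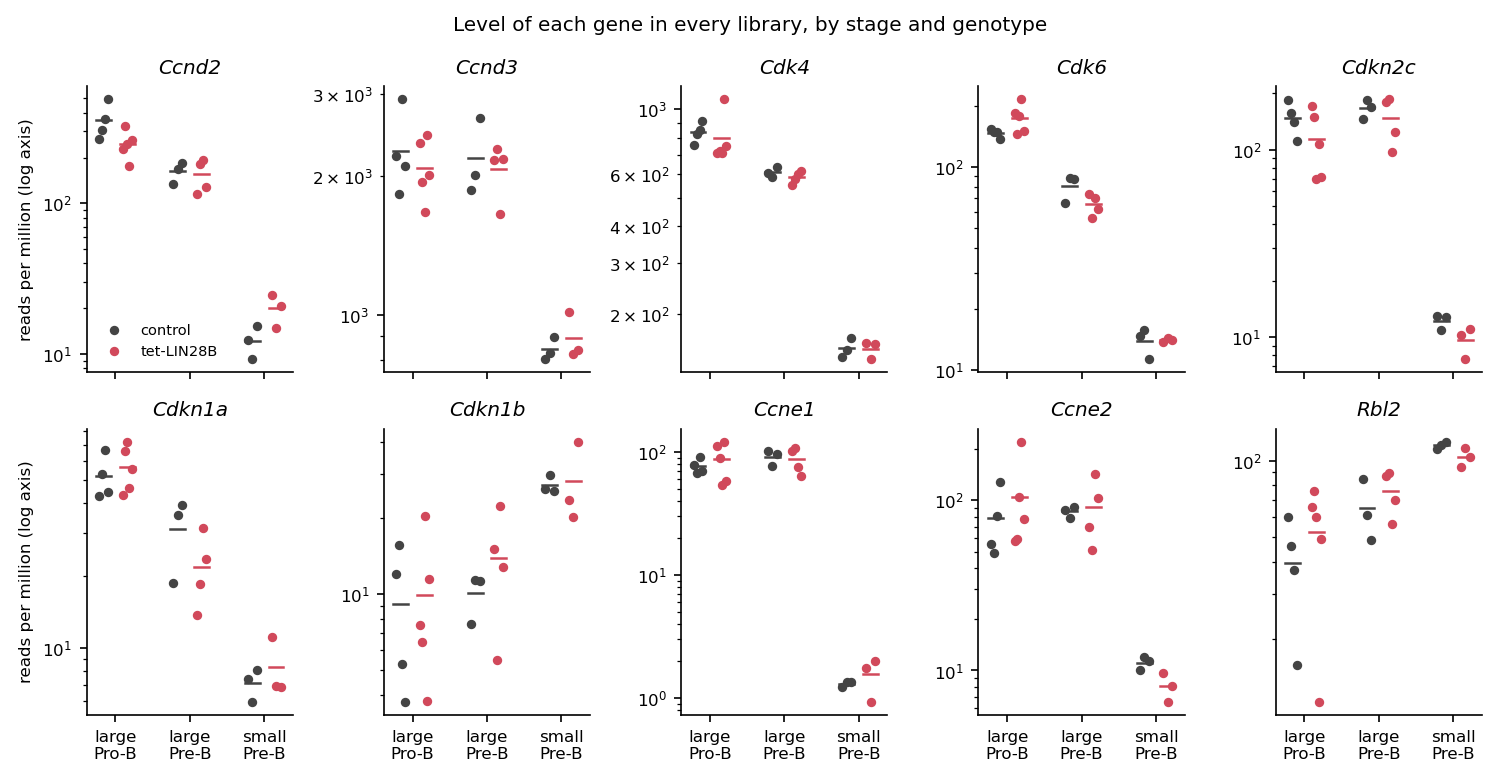
RPM (log axis) of each of the 10 genes in every library, by stage and genotype. Points are libraries and short lines are group means. In 8 panels all small Pre-B points lie below all large Pre-B points of the same genotype, and in the panels of Cdkn1b and Rbl2 the small Pre-B controls lie above.

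Between the large stages, fewer genes differed. Of the 10 genes, 4 were lower without overlap in large Pre-B than in large Pro-B controls (Ccnd2, Cdk4, Cdk6 and Cdkn1a), against 8.66% of genes, and 0 were higher, against 9.75%. Without the libraries that stood apart, the same 4 were lower and Rbl2 was higher. With libraries left out, no share of all genes was counted, and overlap is less likely for any gene. In tet-LIN28B mice 3 were lower without overlap, against 8.56% of genes (Cdk4, Cdk6 and Cdkn1a, and also Ccnd2 without replicate 4), and 0 were higher, against 5.35%. The 7 mice that gave both stages were 3 controls and 4 tet-LIN28B mice. In them Ccnd2, Cdk4, Cdk6 and Cdkn1a were lower in the large Pre-B library of 7 of 7 mice. Their median folds, large Pre-B over large Pro-B, were 0.551, 0.777, 0.400 and 0.436. Cdkn2c and Rbl2 were higher in 6 of 7 mice, at medians of 1.17 and 1.33, and Ccne1 and Ccne2 in 5 of 7. The share of all genes that reach such counts of mice was not computed.

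The order of the genes by level changed with these steps. Per kilobase of exon, large Pro-B controls had Ccnd3 at 258 ± 53.7 and Cdk4 at 257 ± 19.7 RPM, which overlapped, followed by Cdkn2c at 55.3 ± 11.6. Before division by 8775 and 3249 annotated bases, Ccnd3 and Cdk4 were at 2263 and 835 RPM. The order between genes thus depends on the annotation. Cdkn2c, Ccnd2, Ccne1, Ccne2 and Cdkn1a came next in that order, each overlapping with its neighbour. Cdk6 at 10.5 ± 0.521, Rbl2 at 5.27 ± 2.45 and Cdkn1b at 2.01 ± 1.23 were lowest. In small Pre-B controls Ccnd3 at 96.1 ± 5.60 and Cdk4 at 47.3 ± 3.61 were still the highest, and Rbl2 at 15.2 (14.7 to 15.7) and Cdkn1b at 5.97 ± 0.483 followed. Ccne1 was last at 0.492 ± 0.0247, and among neighbours in this order only Ccnd2 and Cdk6 overlapped.

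**Figure D2:**
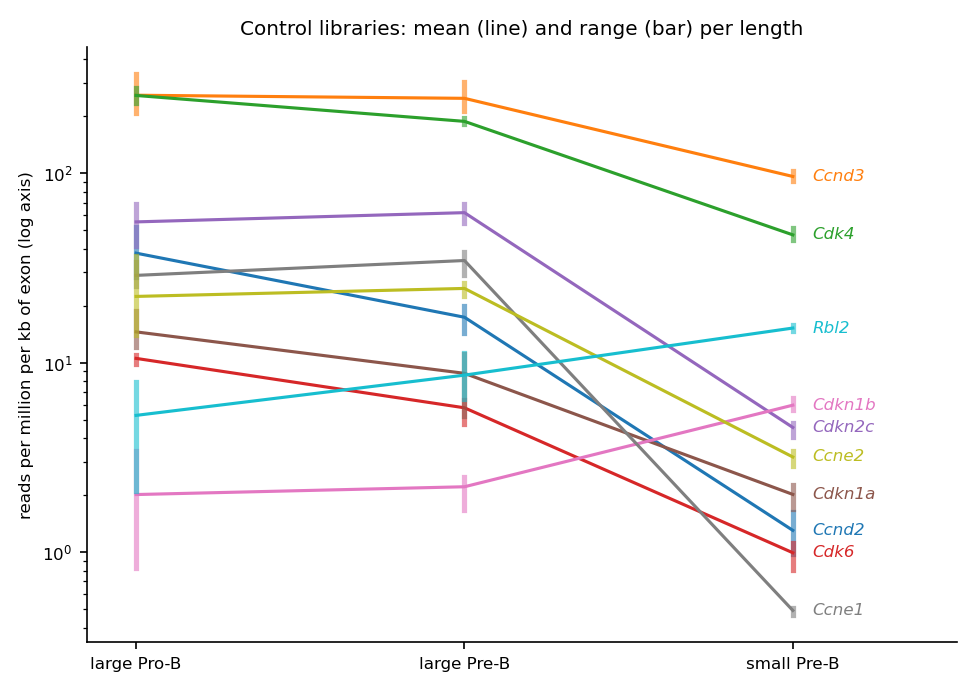
RPM per kilobase of exon (log axis) in control libraries at the 3 stages. Lines join the means of each gene and bars give the range of its libraries; Rbl2 and Cdkn1b are highest in small Pre-B cells while Ccne1 goes from 34.6 to 0.492.

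Against this course, the LIN28B transgene was associated with a change of 1 of the 10 genes at 1 stage. In small Pre-B cells the D-type cyclin Ccnd2 rose. At the other stages 0 of the 10 genes passed. A limma fit for each stage compared the genotypes on the deposited normalized counts, on the log2(value + 1) scale, over all genes tested and with Benjamini-Hochberg adjustment.

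Ccnd2 had normalized counts of 428, 318 and 529 in the small Pre-B controls and of 886, 534 and 727 in the tet-LIN28B libraries. The groups did not overlap, though the highest control and the lowest tet-LIN28B library differed by less than the SD of either group. The means were 425 ± 106 and 716 ± 176 (SD, n = 3 each), and the log2 fold change was 0.75 ± 0.21 (SE; 95% interval 0.27 to 1.23; limma adjusted p = 0.0432). At this stage 7.34% of genes tested were called higher and 7.03% lower, and 33.9% did not overlap between the genotypes, so 1 gene in 10 called is near the share of all genes. The call was lost without control replicate 1 (limma adjusted p = 0.107), control replicate 2 (0.134), tet-LIN28B replicate 1 (0.145) or tet-LIN28B replicate 3 (0.0797), and when libraries were rescaled to the same total (0.0519). Even so, Ccnd2 in tet-LIN28B small Pre-B cells was at 20.1 ± 4.91 RPM, against 155 ± 39.0 in large Pre-B cells of the same genotype. As a share of D-type cyclin RNA per length it was 1.33% ± 0.277 in control and 2.03% ± 0.326 in tet-LIN28B small Pre-B cells.

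The markers of immature and mature B cells moved with genotype at the same stage. Their summed level was 1541 to 2017 RPM in control and 3707 to 3749 in tet-LIN28B small Pre-B libraries. Of the 7 markers, 6 were higher in every tet-LIN28B library than in every control, Ighd being the exception. On normalized counts, 33.9% of all genes tested did not overlap between the genotypes, in either direction. Fcer2a and Cr2, the lowest of the 7 markers, were at 0.920 to 0.993 and 0.832 to 0.893 RPM in controls. In tet-LIN28B libraries they were at 6.01 to 7.81 and 1.42 to 1.98. Ighd was at 136 to 152 RPM in controls and 137 to 147 in tet-LIN28B libraries. The part of immature or mature B cells in the Ccnd2 result was not tested.

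None of the other 9 genes passed at this stage. Ccne2 had normalized counts of 347, 415 and 393 in control and 349, 233 and 284 in tet-LIN28B libraries, which overlapped by a single pair of values. Its log2 fold change was -0.43 ± 0.17 (95% interval -0.81 to -0.05; limma adjusted p = 0.124). For Cdkn2c it was -0.32 ± 0.16 (adjusted p = 0.229), with 448, 377 and 446 in control and 367, 272 and 388 in tet-LIN28B libraries. The intervals of Ccnd3 (-0.08 to 0.31), Cdk4 (-0.15 to 0.20) and Rbl2 (-0.29 to 0.05) were the narrowest. Those of Cdk6 (-0.25 to 0.38), Cdkn1b (-0.44 to 0.47), Cdkn1a (-0.26 to 0.71) and Ccne1 (-0.54 to 0.97) were wider. Ccne1 had 42.8, 46.5 and 47.0 in control and 62.7, 33.2 and 70.6 in tet-LIN28B libraries, so that the transgenic libraries lay on both sides of the controls. Rbl2 had 3846, 3996 and 4124 in control and 3381, 4013 and 3622 in tet-LIN28B libraries, with 1 of the 3 transgenic values inside the control range. Cdkn1b reached 1405 in tet-LIN28B replicate 3 and was 721 and 846 in the others, against 891 to 1027 in controls.

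**Figure D3:**
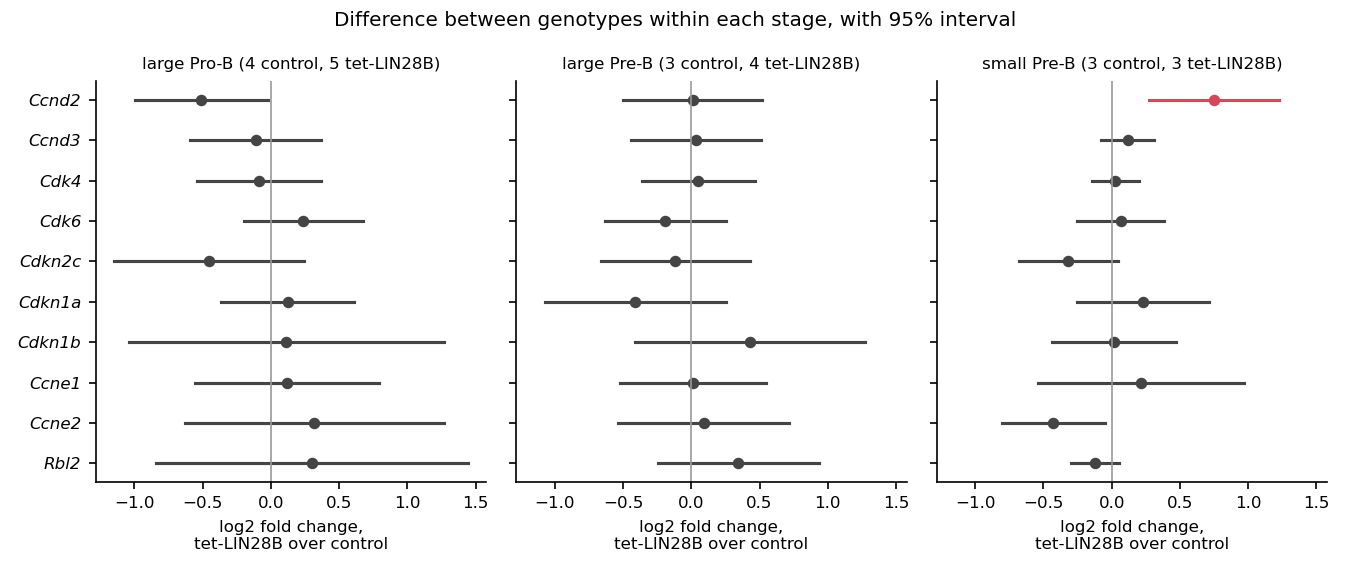
Log2 fold change of normalized counts, tet-LIN28B over control, for each gene at each stage; points are limma estimates and bars are 95% intervals. The red point, Ccnd2 in small Pre-B cells at 0.75, is the only one with an adjusted p under 0.05.

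In large Pro-B cells 0 of the 10 genes passed, as did 0% of genes tested in the higher and 0% in the lower direction. Before adjustment 1 of the 10, Ccnd2, had p under 0.05 by limma, by edgeR and by DESeq2, and 0 were called by any of these. Its normalized counts were 4769, 5486, 6446 and 8917 in control and 4151, 5799, 4018, 3610 and 4587 in tet-LIN28B libraries. The groups overlapped, with 4 of 5 tet-LIN28B libraries below the lowest control. The log2 fold change was -0.51 ± 0.22 (95% interval -0.998 to -0.02; limma adjusted p = 0.999). Without control replicate 4 it was -0.34 (limma unadjusted p = 0.149), and without both libraries that stood apart -0.27 (unadjusted p = 0.189). None of the 10 genes was free of overlap between genotypes, against 1.30% of genes.

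The other large Pro-B values spread widely between mice. Cdkn2c had 3330, 2818, 2512 and 2014 in control and 3104, 2693, 1138, 2175 and 1240 in tet-LIN28B libraries, a log2 fold change of -0.46 ± 0.32. Cdk6 was at 2647 ± 119 and 3182 ± 747 (0.24 ± 0.20) and Cdk4 at 15014 ± 1216 and 14504 ± 4256 (-0.09 ± 0.21). Replicate 4 carried the highest tet-LIN28B values of both kinases, 4407 and 22039. For Ccnd3, Cdkn1a and Ccne1 the log2 fold changes were -0.11 ± 0.22, 0.12 ± 0.22 and 0.12 ± 0.31. Ccne2 ran from 873 to 2317 in control and from 1038 to 4494 in tet-LIN28B libraries, with the highest value of either genotype in replicate 4. The log2 fold changes of Ccne2 (0.32 ± 0.43), Cdkn1b (0.11 ± 0.53) and Rbl2 (0.30 ± 0.52) had the widest errors. Without both libraries that stood apart, 0 of the 10 passed as well. Ccne1 turned to -0.10, Cdk4 went to -0.20, Cdk6 to 0.084, Cdkn1b to 0.011, Ccnd3 to -0.24 and Cdkn2c to -0.63. Without tet-LIN28B replicate 4 alone, Cdk4 was -0.25 and Rbl2 0.75, and without control replicate 4 alone Rbl2 was -0.083. Granulocyte and monocyte markers summed to 68.7 to 261 RPM in large Pro-B controls and 60.5 to 77.8 RPM in tet-LIN28B libraries, and their part in these values was not tested.

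In large Pre-B cells too, 0 of the 10 passed, by limma, edgeR or DESeq2, and 0 had an unadjusted p under 0.05 by any of them. Among all genes 0.0424% were called higher and 0.0141% lower. The genotypes overlapped for all 10, against 6.46% of genes without overlap. Ccnd2 had 2318, 2734 and 2537 in control and 1930, 3202, 3324 and 2032 in tet-LIN28B libraries, which lay on both sides of the controls, and its log2 fold change was 0.01 ± 0.24 (95% interval -0.50 to 0.52). The farthest from 0 were Cdkn1b at 0.43 ± 0.39, Cdkn1a at -0.41 ± 0.31, Rbl2 at 0.34 ± 0.28 and Cdk6 at -0.19 ± 0.21. Rbl2 was 0.058 without control replicate 3, the library that stood apart. With any 1 library left out, Rbl2 ran from 0.058 to 0.62, Cdkn1b from 0.14 to 0.80, Cdkn1a from -0.67 to -0.21 and Cdk6 from -0.25 to -0.093. Cdkn1b had 131, 183 and 154 in control and 254, 96.1, 382 and 201 in tet-LIN28B libraries, 3 of 4 above all controls and 1 below them. Cdkn1a had 321, 575 and 537 in control and 229, 323, 538 and 368 in tet-LIN28B libraries. Ccnd3, Ccne1, Ccne2, Cdk4 and Cdkn2c were within 0.12 of 0. Granulocyte and monocyte markers summed to 7.74 to 386 RPM in the controls, the highest in replicate 2, and 4.69 to 8.10 in tet-LIN28B libraries, and their part in these values was not tested. Rescaling libraries to the same total moved the median of all genes at this stage from -0.02 to -0.12.

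**Figure D4:**
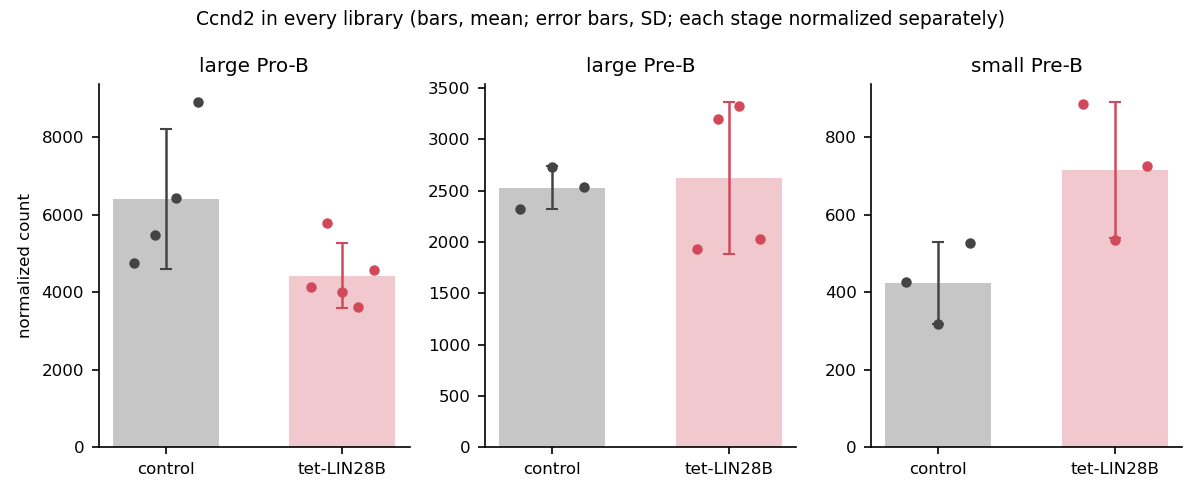
Normalized counts of Ccnd2 in every library of the 3 stages, with a separate axis for each since the tables were normalized separately. Bars are means, error bars SD; tet-LIN28B libraries are mostly below controls in large Pro-B cells, on both sides of them in large Pre-B cells and above them in small Pre-B cells.

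The sign of the Ccnd2 estimate was negative in large Pro-B and positive in small Pre-B cells, and the difference was tested directly in a limma model of all 22 libraries with the mouse as a random block. The genotype difference of Ccnd2 was 1.26 ± 0.34 higher on the log2 scale in small Pre-B than in large Pro-B cells (adjusted p = 0.406 over 11830 genes). It was 0.78 ± 0.36 higher in small than in large Pre-B cells (adjusted p = 0.999), and 0.48 ± 0.28 higher in large Pre-B than in large Pro-B cells (adjusted p = 1.00). None of the 10 genes passed in any of these differences, against 0.0338%, 0.0169% and 0% of genes, and Ccnd2 was the only one with an unadjusted p under 0.05, in the first and the second.

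Other genes of G1 and of the phases after it were counted in the same fits. The lists used here and below were chosen with earlier results of these data known, so their counts are description only. In small Pre-B cells, 6 of 27 further G1 and G1/S control genes tested rose and 1 fell, where 7.34% of all genes rose and 7.03% fell, with a median log2 fold change of 0.08 against -0.00 over all genes tested. Cdc34, a ubiquitin-conjugating enzyme of the SCF pathway that clears p27, went from 1941 ± 176 to 3992 ± 281 normalized counts (log2 fold change 1.04 ± 0.09, limma adjusted p = 0.000128). Cks1b, which helps SCF take up p27, went from 918 ± 119 to 1615 ± 271 (adjusted p = 0.00499). Ccna2, the A-type cyclin of S phase, rose by 0.77 ± 0.14 and Cdkn2d, another INK4 inhibitor, by 0.34 ± 0.07. Of the MuvB and DREAM genes, 1 of 8 rose, Lin37 at 0.31 ± 0.08, and 1 fell, Foxm1 at -0.65 ± 0.12.

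The shares of the S phase list and the mitosis list are read against the same 7.34% and 7.03%. Of 24 S phase genes regulated by E2F, 2 rose in small Pre-B cells, among them Uhrf1 at 0.54 ± 0.12, and the list median was -0.01. Of 22 mitosis genes 6 rose, 0 fell, and 21 had a positive log2 fold change, with a median of 0.37. Over all genes tested, 7285 of 14664 had a positive one. The first 4 were Birc5, Tpx2, Ccnb1 and Cenpe at 0.78, 0.53, 0.63 and 0.63. Summed, the mitosis genes were at 535 to 615 RPM in control and 612 to 848 in tet-LIN28B small Pre-B libraries, against 12737 to 18495 in control large Pre-B libraries. S phase genes were at 1050 to 1238 and 1071 to 1172 in the small Pre-B genotypes.

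Among the inputs to G1, small Pre-B cells had 3 of 31 genes that rose and 5 that fell, against 7.34% and 7.03% of all genes. Myc, which drives growth and cell cycle entry, went from 51.1 ± 22.2 to 408 ± 82.1 normalized counts (log2 fold change 3.03 ± 0.29, limma adjusted p = 0.000231), and Cd79b, a signalling chain of the B cell receptor, rose by 0.43 ± 0.06. Il7r, the receptor of IL-7, went from 16919 ± 367 to 10353 ± 1554 (-0.72 ± 0.09), and Socs2, an inhibitor of cytokine signalling, was at -1.20 ± 0.22. Of 16 FOXO factors and target genes 3 fell, among them Il7r and Rag2 (-0.21 ± 0.06), and 0 rose. Of 15 p53 target genes tested 1 fell, Btg2 at -0.22 ± 0.06. In both large stages 0 genes of these 7 lists were called in either direction. Over the 10 genes themselves the median log2 fold change was 0.12, 0.02 and 0.05 at the 3 stages in order.

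The genes whose levels ran most like each of the 10 over the 22 libraries are given as a description, since all libraries share the steps between stages. Cdk4 ran with Tyms, thymidylate synthase, at a Pearson r of 0.996 on log2(RPM + 1), among 9724 genes searched. Ccne1 ran with Plk1, Lig1 and Sapcd2 at 0.993 to 0.994, and Cdkn2c with Sapcd2, Haus4 and Haspin at 0.986 to 0.987. Cdk6 ran with Igll1 and Vpreb1, the surrogate light chain genes, at 0.987 and 0.984, and Ccnd2 with Lap3, Ddost and Aimp2 at 0.983 to 0.990. Ccnd3 was closest to Galk1 at 0.979, Ccne2 to Rfc4 at 0.982 and Cdkn1a to Pdia6 at 0.973. For Rbl2 the highest were Kdm3a, Polr3b and Dock2 at 0.9749 to 0.9755, and for Cdkn1b Slc25a30, Fam208a and Scai at 0.928 to 0.941. Among the 10, Ccne1 and Cdkn2c had an r of 0.979, and Ccnd2 and Cdkn1b one of -0.741.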

How the data were processed

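Poly-A RNA of sorted cells was made into SMART-Seq v4 and Nextera XT libraries. The tools named in the submitters' processing notes are STAR 2.7.1, RSEM 1.28 and DESeq2, with the build mm10; for the annotation, none was found in the labels or methods. Each stage has its own table of deposited signal, which is a normalized count (reads of a gene over the size factor that the authors gave the library). The authors' tables of fold changes and p-values between genotypes were not used.

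Values came out as whole reads within 0.1 read for 100% of values. These gave library totals, levels relative to those totals and, with exon lengths of GENCODE M21 (GRCm38, the build of mm10), levels per kilobase. Genotypes were compared with limma 3.58.1 (R 4.3.3) on log2(normalized count + 1) over genes at 10 or more in as many libraries as the smaller group, called at an adjusted p under 0.05. This scale understates changes of low genes, and overlapping or near-identical genes may share reads. Tested on simulated data, the fits recovered the sizes of the changes put in, and called fewer of them in the large-cell stages than in small Pre-B cells. The simulation drew each gene independently, with no library made to stand apart, so it does not cover such libraries. Recovered reads were also tested with edgeR 4.0.16 and DESeq2 1.42.0. Stage differences used 1 model with the mouse as a block. Replicates are separate mice, and errors between them include counting error; PCR reads carry no molecular identifiers. The sequencer of each library is not given, so this batch could not be checked.

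All 10 genes are named at each stage, with up to 4 called genes of each list by adjusted p, the 3 most alike genes of each, and Lin28b. Some results that meet this rule are not reported here. Genes, lists and motifs were chosen with earlier results of these data known. Other pseudocounts, filters, scalings, a replicate block and leaving out each library were tried.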

Additional observations from a re-analysis of the deposited data

Results flagged for a closer look

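Both values picked out here belong to large Pro-B tet-LIN28B replicate 4, a library that stood apart over all genes. Its Cdk4 normalized count of 22039 lay far above the other 4 libraries of its group, which ran from 11572 to 13058. Its Rbl2 count of 229.6 lay below the others, at 862 to 1367. Each was a sample far from the rest of its group, among 30 groups of values examined, and chance picks out about 1 in 20. Large Pro-B control replicate 4, which also stood apart, had the highest Cdk4 and the lowest Rbl2 of its group, at 16550 and 287.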

How the results depend on the processing

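The 0 genes of the 10 called in large Pro-B and large Pre-B cells, and the 0 stage differences, held under every setting run. In small Pre-B cells the count of 1 became 0 when libraries were rescaled to the same total (Ccnd2 0.71, limma adjusted p = 0.0519) and ran from 0 to 1 with a library left out, Ccnd2 itself from 0.56 to 0.95. Over its other settings the adjusted p of Ccnd2 was 0.00412 (DESeq2) to 0.0482 (no filter).

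The labels give no pairing of same-numbered libraries, and not every such pair correlated (-0.19 to 0.43 in large Pro-B cells). They were not treated as pairs, and whether some shared a batch could not be told from this. With the replicate block, the counts of the 10 genes called were 0, 0 and 1 at the 3 stages (Ccnd2 in small Pre-B cells, adjusted p = 0.0107), and large Pre-B calls over all genes went from 8 to 2.

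Values near 0 changed sign. Rescaling and quantile normalization gave, in large Pre-B cells, -0.10 and -0.12 for Ccnd2, -0.071 and -0.042 for Ccnd3, -0.095 and -0.11 for Ccne1, -0.015 and -0.030 for Ccne2 and -0.055 and -0.067 for Cdk4, and in small Pre-B cells -0.0091 and -0.0070 for Cdk4. Rescaling gave -0.020 for Cdkn1b in small Pre-B cells. Ccne1 in large Pro-B cells was -0.10 without both libraries that stood apart, a setting chosen after seeing the data. With a library left out, the log2 fold changes that turned ran as follows. In large Pro-B cells they were -0.22 to 0.017 for Ccnd3, -0.064 to 0.31 for Ccne1, -0.048 to 0.59 for Ccne2, -0.23 to 0.44 for Cdkn1b and -0.083 to 0.75 for Rbl2. In large Pre-B cells they were -0.12 to 0.14 for Ccnd2, -0.036 to 0.13 for Ccnd3, -0.12 to 0.19 for Ccne1, -0.17 to 0.32 for Ccne2, -0.012 to 0.12 for Cdk4 and -0.27 to 0.056 for Cdkn2c. In small Pre-B cells they were -0.020 to 0.088 for Cdk4, -0.079 to 0.16 for Cdk6, -0.0093 to 0.36 for Cdkn1a and -0.27 to 0.21 for Cdkn1b. The cause was not tested.

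Between stages, size factors over 22 libraries left the counts without overlap as they were except for Rbl2 in tet-LIN28B cells (1 to 0). Leaving out the libraries that stood apart was chosen after seeing the data. Between the large stages it added Rbl2 in controls (0 to 1) and Ccnd2 in tet-LIN28B cells (3 to 4). No share of all genes was counted in that setting. All-gene calls in large Pre-B cells were 8 by limma, 0 by edgeR and 79 by DESeq2, 15 without a filter, 4 with quantile normalization and 1 rescaled, and in large Pro-B cells 0, 0 and 4. With a library left out they ran from 0 to 1 in large Pro-B and 0 to 23 in large Pre-B cells, and went as low as 1016, from 2107, in small Pre-B cells. Rescaling turned the small Pre-B split from 1076 higher and 1031 lower to 829 and 1227. With 3 to 5 libraries a group, differences inside the intervals given could not be seen.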
